A study of Mus musculus with 18 samples.

Results

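The region described here is the end of mouse chromosome 10, from position 123000001 to the last base of the chromosome, as seen from a 4C bait at Ifng on the same chromosome. The region was chosen with earlier results of these data known, and its members were then taken by position. They were all array probes on chromosome 10 that start at or beyond 123000001 in the mm8 build. This gave 1024 probes of 384942 on the array and of 19736 on chromosome 10. They fill 14 bins of 500 kb, the last one shorter, at chr10:123000001-129959148, out of 254 bins on chromosome 10 and 5026 in all. Each bin held 56 to 92 probes, and the median spacing of the probes was 5209 bases. The bait bin was taken as the 500-kb bin with the highest mean over the Ifng arrays, chr10:117500001-118000000. Ifng, the gene for interferon gamma, was not placed from an annotation of this build. The region lay 5.0 to 11.96 Mb beyond the bait bin. That bin, chosen for its level, was the highest of the array in 7 of the 10 Ifng arrays. In the other 3 the highest bin lay within 1 Mb of it.

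The assay was 4C (circular chromosome conformation capture), in which crosslinked chromatin is cut with HindIII and ligated, so that DNA that lay close to a chosen bait becomes joined to it. The joined DNA was cut again with Csp6I, circularised, amplified from the bait and hybridised in the Cy5 channel of a tiling array against Cy3-labelled genomic DNA cut with the same enzymes. The Ifng bait was read on 10 arrays, 2 for each of 5 groups: naïve CD4 T cells with no treatment, Th1 cells, Th2 cells, Stat4 KO Th1 cells (T cells without Stat4 put through the Th1 condition, labelled S4KO) and 3T3-L1 cells, a preadipocyte line of fibroblast type. A further 8 arrays, with the Il4 bait on chromosome 11 in naïve, Th1, Th2 and Stat6 KO Th2 cells, served as the background of the same probes when the bait lies on another chromosome. The labels give no strain, age or number of animals. They list the 3T3-L1 samples under T cells as well, and say that 1 array came from pooled replicates but not which one. Spread between arrays may therefore be partly technical, and p-values measure the spread between these arrays only.

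Interferon gamma is the cytokine by which T helper 1 (Th1) cells are known, and its gene is switched on there by STAT4, the transcription factor downstream of interleukin 12. STAT6, encoded in the region, acts downstream of interleukin 4 and drives the T helper 2 (Th2) programme, while STAT2, encoded further along, acts downstream of type I interferons. Contacts in cis usually fall with distance from the bait, and over long distances regions of like activity tend to lie near each other.

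In the mm8 band map the region takes up the end of band 10qD2, up to chr10:124074205, and all of the terminal band 10qD3, chr10:124074206-129959148. The gene table used is of another build, GRCm38.p6, so genes are given by band and by their order in it, not by bin. Band 10qD3 held 163 of the 1001 protein-coding genes of chromosome 10. The order began with Slc16a7, a monocarboxylate transporter, and Lrig3, a membrane regulator of growth factor receptors. Cdk4, the cyclin-dependent kinase of G1 phase, was the 11th gene, beside Tspan31, Agap2 and Os9. Then came Ddit3 (the 23rd), the stress-induced factor also called CHOP, Gli1 (the 26th), the Hedgehog effector, Shmt2 (the 32nd), a mitochondrial enzyme of serine metabolism, and Lrp1 (the 34th), an endocytic receptor. Stat6 was the 35th and had Nab2, a repressor of EGR factors, as its next neighbour. Prim1, Baz2a and Timeless, which act in DNA replication, silencing and the replication fork, lay between it and Stat2, the 62nd gene. Il23a, which encodes the p19 subunit of interleukin 23, was the neighbour of Stat2. Pa2g4, Erbb3, Ikzf4, Cdk2, Cd63 and Itga7 followed in that order, and 87 genes ran from Cdk4 to Itga7 inclusive. The 99th gene was the first of 58 olfactory receptor genes, which with 4 vomeronasal receptor genes lay towards the chromosome end. All 24 single genes looked up in this way lay in 10qD3.

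The promoters of the 3 genes by which the region is best known are shown, with the matches found in a search for restriction sites of the assay and for factor motifs. They are the bases just before each gene's start on the plus strand, from RefSeq on GRCm38.p6 (not the array's build), at chr10:127063285-127063534 for Cdk4, chr10:127642736-127642954 for Stat6 and chr10:128270248-128270497 for Stat2. Capitals mark CACGTG (E-box) in Cdk4, GTAC (the Csp6I site) in Stat6, and TTTCAGTTTC and TTCCCTAGAA in Stat2.
Cdk4: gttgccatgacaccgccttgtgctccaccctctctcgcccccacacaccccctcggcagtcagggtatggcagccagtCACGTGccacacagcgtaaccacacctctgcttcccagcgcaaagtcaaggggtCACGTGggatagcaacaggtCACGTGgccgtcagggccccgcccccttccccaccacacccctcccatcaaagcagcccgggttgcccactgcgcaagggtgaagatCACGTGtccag
Stat6: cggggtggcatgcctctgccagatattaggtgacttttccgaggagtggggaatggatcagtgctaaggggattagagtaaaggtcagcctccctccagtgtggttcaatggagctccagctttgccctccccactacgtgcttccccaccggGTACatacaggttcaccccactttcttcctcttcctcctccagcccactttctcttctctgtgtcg
Stat2: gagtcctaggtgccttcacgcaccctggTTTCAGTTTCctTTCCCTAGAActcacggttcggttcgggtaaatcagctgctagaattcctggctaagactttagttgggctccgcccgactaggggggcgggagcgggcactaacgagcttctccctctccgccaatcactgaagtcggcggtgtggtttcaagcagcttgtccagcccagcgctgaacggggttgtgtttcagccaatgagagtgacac

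Letters were searched on both strands in the windows above. In Cdk4, CACGTG occurred 4 times, at 172, 118, 98 and 11 bases before the start, and the window had 64.4% G and C. In Stat2, TTTCAGTTTC, a match on the minus strand to the interferon response core (GAAA, any 2 bases, GAAA), began 222 bases before the start, and TTCCCTAGAA, a match to the STAT form with a spacer of 4 bases (TTC, any 4 bases, GAA), began 210 bases before it. The motifs did not overlap. In Stat6, with 219 bases and 55.3% G and C, none of the STAT, interferon response or E-box letters occurred, and 1 Csp6I site lay 66 bases before the start. The STAT form with a spacer of 3 bases and the HindIII site AAGCTT were in none of the 3 windows. Of 27025 promoters of 250 bases, 6.05% held CACGTG, 3.04% held the interferon response core, 5.86% the STAT form with a spacer of 4 and 7.18% that with a spacer of 3, 6.16% held AAGCTT and 31.4% held GTAC. A match describes these letters and was not tied to any measured contact.

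Values are log2 of the Cy5 over the Cy3 signal, centred on the median of an array's probes off the bait chromosome, so 0 is the level of the typical probe elsewhere in the genome. The arrays differed in strength before any result on the region. At 1 to 2 Mb from the bait bin the mean log2 level was 2.30 and 2.14 in the naïve arrays, 1.14 and 0.68 in Th1, 2.48 and 2.75 in Th2, 1.70 and 1.71 in S4KO and 1.18 and 1.16 in 3T3-L1. Replicates correlated at r = 0.929 to 0.977 over the bins of chromosome 10 in the 5 groups, a description of arrays that share probes. Th1 replicate 2 stood apart: its agreement with Th1 replicate 1 off chromosome 10 was the lowest of the Ifng pairs (r = 0.171, against up to 0.757 for naïve), and over all probes it had r = 0.347 with Il4 Th2 replicate 2, an array of another bait. Results that use Th1 cells are given with and without it. Leading digits of the array serial number placed both naïve arrays and Th1 replicate 1 in one series and Th1 replicate 2 and both Th2 arrays in another. The S4KO arrays had a series of their own and so did each 3T3-L1 array, so for these cells the series and the group cannot be told apart. Naïve and Th2 arrays did not share a series either, and only the Th1 replicates, which fell in both series, linked them.

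Over the whole region the mean log2 level was above that of the typical probe elsewhere in every Ifng array. It was 0.70 and 0.69 in naïve cells (0.70 ± 0.0087, SD, n = 2), 0.49 and 0.37 in Th1 cells (0.43 ± 0.086), 0.82 and 0.95 in Th2 cells (0.88 ± 0.095), 0.68 and 0.82 in S4KO cells (0.75 ± 0.10) and 0.43 and 0.39 in 3T3-L1 cells (0.41 ± 0.023). Th2 cells had the highest mean before any scaling, S4KO arrays overlapped both the Th2 and the naïve ones, and Th1 and 3T3-L1 arrays overlapped each other. The 8 Il4 arrays lay between 0.01 and 0.06 over the same probes. The equally distant stretch on the other side of the bait, chr10:105540853-112500000 with 1149 probes, gave a reference for distance. The region exceeded it by 0.18 and 0.20 in naïve cells, 0.12 and 0.13 in Th1 cells and 0.14 and 0.09 in S4KO cells. In Th2 cells the difference was -0.01 and 0.02, and in 3T3-L1 cells the region lay below it, by -0.23 and -0.31. These signs of the log2 difference were the same in both arrays of each group except Th2.

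The level was not even along the region, and the unevenness differed between cell types. The region was described in 3 stretches, a first one of 3.5 Mb (chr10:123000001-126500000, 569 probes), a middle one of 2 Mb (chr10:126500001-128500000, 272 probes) and a last one of 1.46 Mb (chr10:128500001-129959148, 183 probes). Their borders were set with earlier results in view, so the stretch levels are descriptions without a test. In the middle stretch the log2 level was 1.65 and 1.66 in naïve cells, 1.18 and 1.13 in Th1 cells, 0.78 and 1.10 in Th2 cells, 1.14 and 1.25 in S4KO cells and 0.18 and 0.24 in 3T3-L1 cells. On this unscaled mean naïve arrays were highest and 3T3-L1 arrays lowest, both clear of the rest. Th1 and S4KO arrays overlapped, and no Th2 array reached the Th1 ones. Divided by the level 1 to 2 Mb from the bait, Th1 arrays were highest, at 1.64 and 2.62. Naïve (1.14 and 1.24) and S4KO arrays (1.06 and 1.17) then overlapped, and 3T3-L1 arrays stayed lowest, at 0.24 and 0.32.

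In the first stretch the order was another. The log2 level there was 0.82 and 0.88 in Th2 cells, 0.46 and 0.60 in S4KO cells, 0.50 and 0.45 in 3T3-L1 cells, 0.33 and 0.30 in naïve cells and 0.25 and 0.09 in Th1 cells. In the last stretch it was 0.84 and 0.96 in Th2 cells, 0.69 and 0.89 in S4KO cells, 0.55 and 0.46 in 3T3-L1 cells, 0.46 ± 0.0039 in naïve cells and 0.22 and 0.11 in Th1 cells. By the mean over probes Th2 cells were highest and Th1 cells lowest in both outer stretches, an order that other summaries turned. By the median probe 3T3-L1 cells were highest, at 0.28 in the first stretch against 0.17 in Th2 cells and at 0.30 in the last against 0.19. Divided by the level 1 to 2 Mb from the bait, 3T3-L1 cells led the first stretch (0.65 against 0.52 in Th2 cells) and S4KO cells the last (0.74 against 0.55). On that scale naïve cells were lowest in the first stretch, at 0.23 against 0.28 in Th1 cells.

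The middle stretch minus the mean over the outer probes put this contrast in one number per array. It was 1.29 and 1.32 in naïve cells, 0.93 and 1.03 in Th1 cells, 0.62 and 0.59 in S4KO cells, -0.05 and 0.20 in Th2 cells and -0.34 and -0.21 in 3T3-L1 cells. The 5 groups did not overlap in this difference. Divided by each array's level at 1 to 2 Mb from the bait, it was 0.89 and 0.98 in naïve, 1.30 and 2.40 in Th1, 0.58 and 0.55 in S4KO, -0.03 and 0.11 in Th2 and -0.46 and -0.29 in 3T3-L1 cells. On that scale Th1 cells came above naïve cells, and the order of the other groups stayed as it was. With the median probe in place of the mean it was 1.87 and 1.84 in naïve, 1.08 and 0.44 in Th1, 1.09 and 0.91 in S4KO, 0.10 and 0.12 in Th2 and -0.22 and -0.16 in 3T3-L1 cells, where the Th1 and S4KO arrays overlapped.

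**Figure D1:**
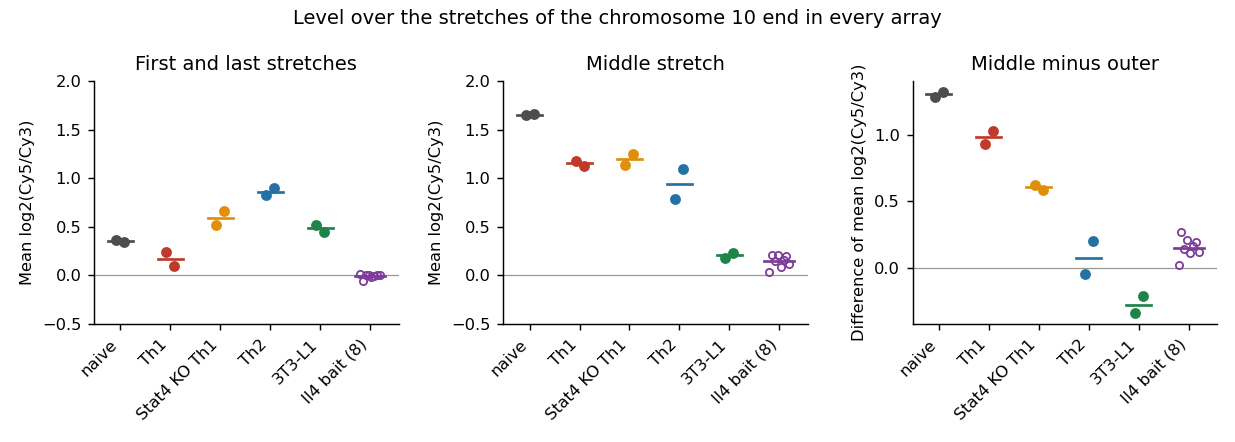
Mean log2 level (Cy5 over Cy3, centred on probes off the bait chromosome) of the first and last stretches together, of the middle stretch, and their difference (middle minus outer), with a dot for each Ifng array, open circles for the 8 Il4 arrays and a bar for the mean of each group. In the middle stretch the naïve arrays sit at 1.65 and 1.66 and the 3T3-L1 arrays at 0.18 and 0.24, while in the panel of the outer stretches the Th2 arrays are highest.

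A count of strong probes does not use the size of the signal, and by it the groups were less clearly apart. Of the probes of the middle stretch, 61.8% and 68.4% were among the highest 5% of their array in naïve cells, 62.1% and 46.0% in Th1 cells and 54.4% and 52.6% in S4KO cells. The share was 27.2% and 37.9% in Th2 cells and 11.8% and 11.4% in 3T3-L1 cells. The naïve and Th1 arrays overlapped here, and the Th2 and 3T3-L1 arrays stayed below all others. In the first stretch it was 25.8% and 30.9% in Th2, 21.6% and 26.7% in S4KO and 26.0% and 23.7% in 3T3-L1 cells, which overlapped, against 15.1% and 15.6% in naïve and 14.8% and 5.80% in Th1 cells. Over the whole region the 8 Il4 arrays had 3.91% to 4.59%, near the 5% that defines a strong probe. In the middle stretch they had 4.41% to 9.93%, and in the first stretch 2.11% to 4.57%.

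The same counts were turned into contact calls per array, by a one-sided binomial test with Benjamini-Hochberg adjustment over the array's bins, and a bin was taken for a group when both arrays called it. Neighbouring probes share fragments, so these calls describe the arrays. Naïve cells had 7 of the 14 bins called, against 3.22% of all bins: the 6 from 126000001 to 129000000 and the terminal one. Th1 cells had 4, the bins of the middle stretch, against 1.21% (8 in replicate 1 against 2.23% and 4 in replicate 2 against 1.29%). Th2 cells had 13, against 2.15%, and the bin left out was chr10:127500001-128000000, inside the middle stretch. S4KO cells had all 14, against 2.59%. 3T3-L1 cells had 11, against 1.45%, and the missing ones were the 3 bins from 126500001 to 128000000. None of the 14 bins was called in both arrays of any Il4 group, where 3.38% of all bins were in naïve, 1.75% in Th1, 0.438% in Th2 and 2.01% in Stat6 KO Th2 cells.

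How much of the region stood above contacts with other chromosomes differed between groups. Of the 4772 bins off chromosome 10, the highest group mean was 0.64 in naïve cells, 0.25 in Th1, 0.32 in Th2, 0.53 in S4KO and 0.57 in 3T3-L1. The number of the 14 bins above that value was 6 in naïve, 6 in Th1, 14 in Th2, 11 in S4KO and 3 in 3T3-L1 cells. With the Il4 bait it was 0 in each of the 4 groups. The other bins of chromosome 10 were not counted in this way. The lowest Ifng bin of the region lay above 71.3% of the bins off chromosome 10 in naïve, 80.8% in Th1 and 90.8% in 3T3-L1 cells. It lay above 99.9% in S4KO and 100% in Th2 cells. The highest bin was chr10:128000001-128500000 in naïve (1.86) and S4KO cells (1.44), chr10:126500001-127000000 in Th1 cells (1.37), the terminal bin in Th2 cells (1.37) and chr10:128500001-129000000, just past the middle stretch, in 3T3-L1 cells (0.65). The lowest bin of Th2 cells (0.47) and of 3T3-L1 cells (0.12) was the same one, chr10:127500001-128000000.

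**Figure D2:**
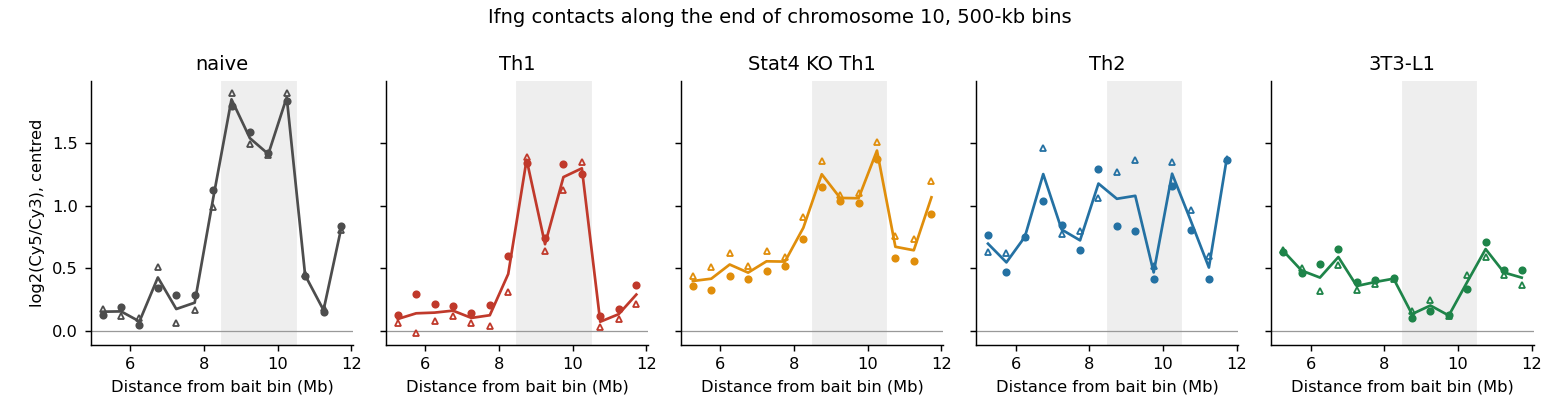
Mean log2 level of each 500-kb bin against distance from the bait bin in Mb, 1 panel per Ifng group, with filled circles for replicate 1, open triangles for replicate 2, a line for their mean and grey for the middle stretch. The naïve panel rises to 1.86 inside the grey band, the Th2 panel has its lowest bin, 0.47, there, and the 3T3-L1 panel dips to 0.12.

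At 100 kb, 64 bins with at least 10 probes showed where within the stretches the signal lay. In the middle stretch the highest 100-kb bin of naïve cells, by the mean of both arrays, was chr10:126800001-126900000, at 2.06 and 2.35 (2.20 ± 0.21). That of Th1 cells was chr10:126500001-126600000, at 1.93 and 2.55 (2.24 ± 0.44), where naïve cells had 2.11, S4KO cells 1.65, Th2 cells 0.67 and 3T3-L1 cells 0.14. That of Th2 cells was chr10:128400001-128500000, at the far border, at 2.00 and 2.52 (2.26 ± 0.36). Naïve cells had 2.14 and S4KO cells 1.44 there, while Th1 cells had 0.53 and 3T3-L1 cells 0.83, the highest value of 3T3-L1 cells in the middle stretch. By the mean of both arrays, Th1 and Th2 cells thus peaked at opposite ends of the middle stretch, both at bins where naïve cells were also high. The Th2 arrays differed in this. Th2 replicate 2 was highest at chr10:126900001-127000000, with 2.55 against 2.52 at the far border, and Th2 replicate 1 had 0.68 in that bin. By the same mean S4KO cells peaked at chr10:128200001-128300000, at 1.66 and 1.74, where Th1 cells had 1.64 and Th2 cells 0.63. S4KO replicate 2 was highest at chr10:126900001-127000000, with 1.87. Naïve replicate 1 was also highest at chr10:126900001-127000000, with 2.19 against 2.06 in the bin named for naïve cells.

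Outside the middle stretch the group means peaked at different places, and single arrays did not always share these peaks. In the first stretch the means of naïve, Th2 and S4KO cells all peaked at chr10:126300001-126400000, with 1.65, 1.69 and 1.33. That of Th1 cells peaked 100 kb further on, with 1.25. Th2 replicate 2 was highest at chr10:124800001-124900000 (2.02 against 1.64 in the bin named for its group). S4KO replicate 2 was highest at chr10:126200001-126300000 (1.36 against 1.26) and Th1 replicate 1 at chr10:126300001-126400000 (1.57 against 1.39). 3T3-L1 cells peaked at chr10:123300001-123400000, with 0.91, where Th2 cells had 1.12 and naïve, S4KO and Th1 cells 0.27, 0.26 and 0.05. 3T3-L1 replicate 2 was slightly higher at chr10:123600001-123700000 (0.82 against 0.80). In the last stretch naïve cells peaked in the bin next to the middle stretch, at 1.18 ± 0.26, and Th2 cells at chr10:129600001-129700000, at 1.87 and 1.32. Th1 cells had 0.19 in that bin. The means of S4KO and Th1 cells peaked at chr10:129700001-129800000, with 1.16 and 0.44, and that of 3T3-L1 cells at chr10:128700001-128800000, with 0.92. Th2 replicate 2 was highest at chr10:129700001-129800000, with 1.75. S4KO replicate 1 was highest at chr10:129600001-129700000 (1.00 against 0.99) and S4KO replicate 2 at chr10:128500001-128600000 (1.49 against 1.34).

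As a description over the 64 bins, which share probes and neighbours, replicate arrays correlated at r = 0.920 in naïve, 0.854 in Th1, 0.771 in S4KO, 0.720 in 3T3-L1 and 0.519 in Th2 cells. Between groups, naïve and Th1 arrays had r = 0.727 to 0.845, naïve and S4KO arrays 0.749 to 0.778, and Th1 and S4KO arrays 0.610 to 0.692. Naïve and Th2 arrays had 0.241 to 0.491, and Th1 and Th2 arrays -0.080 to 0.201. The 3T3-L1 arrays had -0.505 to -0.260 with naïve and -0.617 to -0.405 with Th1 arrays, so bins high in those T cells were low in the line.

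**Figure D3:**
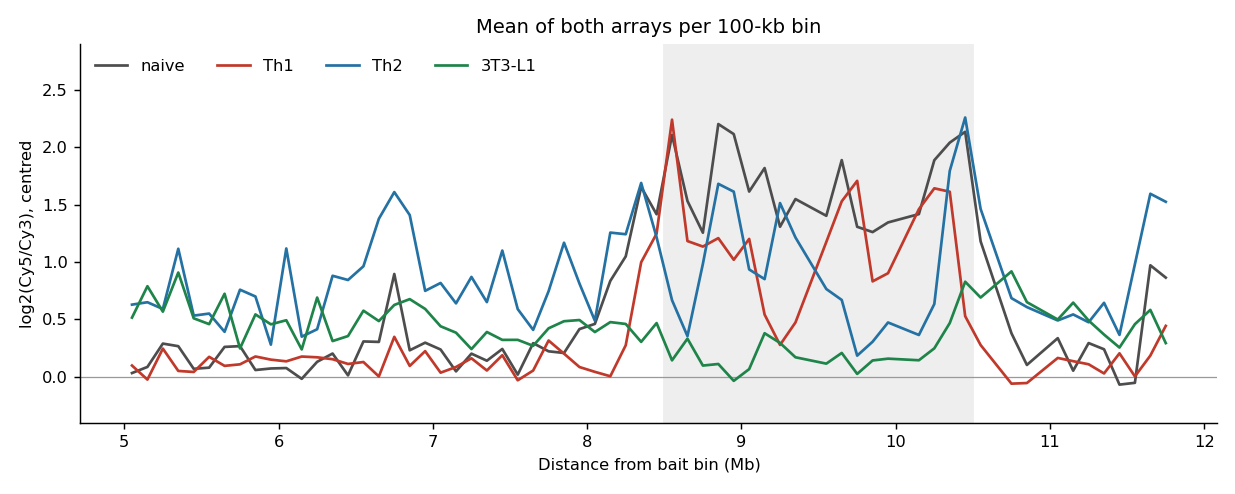
Group mean log2 level of 100-kb bins with at least 10 probes against distance from the bait bin in Mb, for 4 Ifng groups, each line the mean of 2 arrays and grey the middle stretch. Naïve and Th1 lines rise above 2 near the start of the grey band, and the Th2 line reaches its peak of 2.26 at the far border.

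Bins were compared between groups with limma, fitted on all bins and all 10 Ifng arrays, with Benjamini-Hochberg adjusted p-values over the 5021 bins tested and calls at 0.05. Comparisons of one group with several others share its arrays and are not independent.

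Between naïve and Th1 cells, which asks what Th1 differentiation does to the contacts of Ifng, the region was lower in Th1 cells in 6 of 14 bins and higher in 0, and 8 bins had an unadjusted p under 0.05. Of all bins, 11.8% were called, 7.79% lower and 3.96% higher, and on chromosome 10 it was 133 of 249, all lower. The median log2 change was -0.22 over the region, -0.29 over chromosome 10 and 0.02 over all bins. The arrays of the groups did not overlap in 9 of the 14 bins, all lower in Th1 cells, against 24.2% of all bins lower and 37.8% higher. The called bins were chr10:126000001-127500000 (3 bins, mean change -0.64), chr10:128000001-129000000 (2 bins, -0.47) and the terminal bin (-0.53). In chr10:127000001-127500000, the largest fall, the level was 1.59 and 1.49 in naïve and 0.74 and 0.64 in Th1 arrays, a change of -0.85 (SE 0.11, limma adjusted p = 4.17e-05). The next bin, chr10:127500001-128000000, had 1.42 and 1.40 in naïve and 1.33 and 1.12 in Th1 arrays and did not pass (-0.18, SE 0.060, limma adjusted p = 0.0560).

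This direction did not hold once arrays were scaled to equal strength. With each array divided by its level at 1 to 2 Mb from the bait, 2 bins were called, both higher in Th1 cells (chr10:126500001-127000000 and chr10:127500001-128000000, each by 1.22), and with division by the spread off chromosome 10, 3 were called, all higher and all in the middle stretch. Quantile normalization called 1 higher and 2 lower. Without Th1 replicate 2, which leaves the comparison within one serial series, the unscaled counts were again 0 higher and 6 lower.

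Between naïve and Th2 cells nearly the whole region changed, in opposite directions inside and outside the middle stretch. In Th2 cells 9 bins were higher and 4 lower, against 1.61% and 3.39% of all bins, 5.00% together. The 4 lower bins were the 4 of the middle stretch, chr10:126500001-128500000, with a mean change of -0.70. The higher ones were the 6 bins of chr10:123000001-126000000 (mean change 0.59) and the 3 of the last stretch (0.44). Only chr10:126000001-126500000, with 1.12 and 0.98 in naïve and 1.29 and 1.06 in Th2 arrays, did not pass (0.12, SE 0.086, limma adjusted p = 0.464). Arrays of both groups were apart in all 13 called bins, 9 higher and 4 lower, against 35.6% and 14.5% of all bins. Chromosome 10 as a whole had 147 of 249 bins called, 56 higher and 91 lower. The naïve and the Th2 arrays came from different serial series, so this comparison was also between series. With the series as a block, estimated from the difference between the Th1 replicates, the region had 8 bins higher and 3 lower.

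The largest rise was in chr10:124500001-125000000, from 0.34 and 0.51 to 1.04 and 1.46, a change of 0.83 (SE 0.095, limma adjusted p = 1.05e-05). The largest fall was in chr10:127500001-128000000, from 1.42 and 1.40 to 0.42 and 0.51, a change of -0.94 (SE 0.060, limma adjusted p = 3.03e-09). That fall was called under each of the alternatives run for it. Scaling by the level near the bait left 5 higher and 1 lower, scaling by spread 8 higher and 1 lower, and the median probe per bin 1 higher and 4 lower.

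Set against each other, Th1 cells had less contact than Th2 cells in both outer stretches and more in 1 bin of the middle stretch. Th1 cells were lower in 10 bins and higher in 1, where 2.65% of all bins were called, 2.41% lower and 0.239% higher. All 7 bins of the first stretch were lower in Th1 cells, with a mean change of -0.68, as were all 3 of the last, with -0.75. The largest fall was in chr10:124500001-125000000, with 0.20 and 0.12 in Th1 arrays (-1.09, SE 0.095, limma adjusted p = 6.76e-07). The rise was in chr10:127500001-128000000, with 1.33 and 1.12 in Th1 arrays against 0.42 and 0.51 in Th2 arrays (0.76, SE 0.060, limma adjusted p = 2.46e-07). The arrays were apart in 11 bins lower and 2 higher, against 29.0% and 22.4% of all bins. Chromosome 10 as a whole had 106 of 249 bins called, 95 lower and 11 higher.

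In the other 3 bins of the middle stretch the change was 0.31, -0.39 and 0.04, and none passed. Scaling raised this stretch in Th1 cells: division by the level near the bait called all 4 of its bins higher in Th1 cells and 5 outer bins lower, division by spread called 3 higher and 7 lower, and quantile normalization 3 higher and 8 lower. With the median probe per bin 2 were higher and 1 lower. The Th1 and Th2 arrays differed in strength near the bait (1.14 and 0.68 against 2.48 and 2.75), and the part of this in the outer stretches was not tested beyond these scalings. Without Th1 replicate 2 the counts were 1 higher and 9 lower, and without Th1 replicate 1, within one serial series, 1 higher and 10 lower.

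Cells without Stat4, put through the Th1 condition, differed from Th1 cells in bins outside the middle stretch. They were higher in 8 bins and lower in 0, where 1.89% of all bins were called, 1.87% higher and 0.0199% lower, and 13 of the 14 bins had an unadjusted p under 0.05. Chromosome 10 as a whole had 70 of 249 bins called, 69 higher and 1 lower. The 8 were 5 of the 7 bins of the first stretch, among them chr10:125000001-126500000 with a mean change of 0.42, and all 3 of the last stretch, with 0.63. The largest rise was in the terminal bin, chr10:129500001-129959148, with 0.94 and 1.20 in S4KO and 0.36 and 0.21 in Th1 arrays (0.78, SE 0.070, limma adjusted p = 1.01e-05). In the middle stretch the changes were -0.12, 0.37, -0.17 and 0.14, and none passed. The arrays were apart in 12 bins higher and 1 lower, against 33.9% and 12.7% of all bins. Without Th1 replicate 2, and equally without S4KO replicate 2, 5 bins were higher and 0 lower. Scaling by the level near the bait left the 3 bins of the last stretch higher and made chr10:127500001-128000000 lower, scaling by spread called 2 lower and 0 higher, quantile normalization called 5 higher and 3 lower, and the median probe called none (5 bins with an unadjusted p under 0.05).

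Against naïve cells, S4KO cells were lower in the middle stretch and higher in bins on both sides of it. They were higher in 7 bins and lower in 4, where 9.12% of all bins were called, 5.72% higher and 3.41% lower. The lower bins were again the 4 of the middle stretch, with a mean change of -0.46, and the higher ones were 4 of the first stretch and the 3 of the last, with 0.32 there. The largest rise was in chr10:129000001-129500000, from 0.15 and 0.18 to 0.56 and 0.73 (0.48, SE 0.063, limma adjusted p = 7.99e-05). The largest fall was in chr10:126500001-127000000, from 1.80 and 1.90 to 1.14 and 1.35 (-0.60, SE 0.096, limma adjusted p = 0.000658). The arrays were apart in 8 bins higher and 5 lower, against 42.7% and 12.8% of all bins. The falls were not called after scaling by the level near the bait (7 higher, 0 lower) or by spread (3 higher, 0 lower). Without S4KO replicate 2 the counts were 4 higher and 3 lower. Chromosome 10 as a whole had 124 of 249 bins called with all arrays, 25 higher and 99 lower.

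S4KO and Th2 cells differed in 4 bins, where 1.23% of all bins were called, 0.717% higher and 0.518% lower. Chromosome 10 as a whole had 47 of 249 bins called, 21 higher and 26 lower. S4KO cells were higher in chr10:127500001-128000000, with 1.02 and 1.10 against 0.42 and 0.51 (0.59, SE 0.060, limma adjusted p = 3.78e-05). They were lower in chr10:124500001-125000000, with 0.41 and 0.52 against 1.04 and 1.46 (-0.79, SE 0.095, limma adjusted p = 0.000137). They were also lower in the opening bin, with 0.36 and 0.44 against 0.76 and 0.63 (-0.30, SE 0.053, limma adjusted p = 0.00568), and, close to the threshold, in the terminal bin, with 0.94 and 1.20 against 1.36 and 1.37 (-0.30, SE 0.070, limma adjusted p = 0.0443). The terminal bin was not called with the replicate block, with the compared groups alone, with no probe minimum, with trend and robust eBayes, or without Th2 replicate 1, Th2 replicate 2 or S4KO replicate 1 (limma adjusted p = 0.0625 to 0.301), and the opening bin not with trend and robust eBayes or without Th2 replicate 1 (limma adjusted p = 0.111 and 0.103). The bin chr10:124500001-125000000 was called between Th2 cells and each of the other T cell groups, but with the median probe in none of these comparisons. The arrays were apart in 2 bins higher and 8 lower, against 28.5% and 14.8% of all bins. Under scaling by spread or by the level near the bait no bin was called (6 and 5 bins with an unadjusted p under 0.05), and the median probe called 2 higher and 0 lower, both in the middle stretch.

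**Figure D4:**
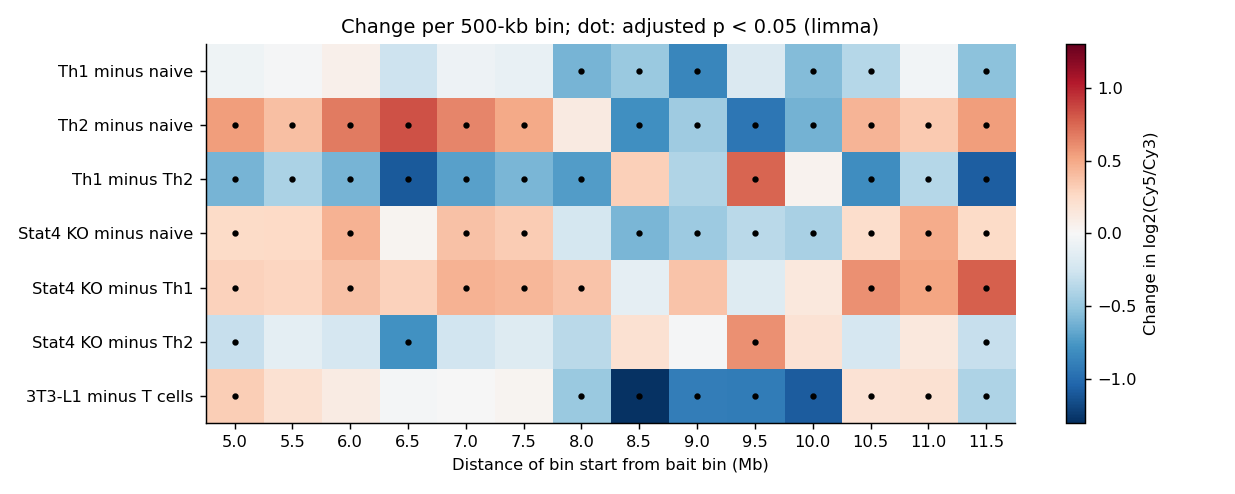
Log2 change of each 500-kb bin, in columns ordered along the chromosome by distance from the bait bin in Mb, for the comparisons between Ifng groups in rows, with dots on bins with a limma adjusted p under 0.05. In the Th2 minus naïve row the 4 bins of the middle stretch are lower and 9 outer bins higher, and in the 3T3-L1 row the same 4 bins are lower, by up to 1.29.

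3T3-L1 cells were compared with the mean of naïve, Th1 and Th2 cells (6 arrays), and the middle stretch was where they differed most. They were lower in 6 bins and higher in 3, where 12.2% of all bins were called, 5.60% lower and 6.65% higher. Chromosome 10 as a whole had 155 of 249 bins called, 134 lower and 21 higher. The 5 bins of chr10:126000001-128500000 were lower, with a mean change of -0.93, as was the terminal bin (-0.40). The 2 bins of chr10:128500001-129500000 were higher, with 0.19, as was the opening bin, chr10:123000001-123500000, with 0.63 and 0.65 in 3T3-L1 arrays. There the T cell arrays ran from 0.06 over a median of 0.15 to 0.76 (change 0.32, SE 0.043, limma adjusted p = 4.22e-05), so the groups overlapped. In chr10:126500001-127000000 the 3T3-L1 arrays had 0.10 and 0.16, and the T cell arrays ran from 0.84 over a median of 1.37 to 1.90, a change of -1.29 (SE 0.078, limma adjusted p = 3.3e-09).

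The 3T3-L1 arrays were below every T cell array in 4 bins, the 4 of the middle stretch, and above every one in 0, against 7.67% and 11.7% of all bins. Those 4 bins were called lower under quantile normalization, both scalings and the median probe as well. The 10 outer bins, of which 3 were higher and 2 lower as reported, moved with the scale: 8 were higher and 0 lower by the level near the bait, 6 higher and 0 lower by the median probe, and 5 higher and 2 lower after quantile normalization. Without Th1 replicate 2 the counts were 2 higher and 6 lower.

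The bait difference set levels from the Ifng bait, in cis to the region, against those from the Il4 bait on chromosome 11. Over naïve, Th1 and Th2 cells, all 14 bins were higher with the Ifng bait than with the Il4 bait, where 8.29% of the 5016 bins tested were called, 4.55% higher and 3.75% lower. With the median probe per bin 7 were higher and 0 lower: all 4 of the middle stretch, 2 of the last and 1 of the 7 of the first, where the median change was 0.07 in place of 0.36. The largest change was in chr10:128000001-128500000, 1.39 (SE 0.039, limma adjusted p = 1.91e-14), with 0.01 to 0.17 in the 8 Il4 arrays. On chromosome 10 as a whole 207 of 249 bins were called, all higher, so the direction was not particular to the region.

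The middle stretch also differed slightly from the outer probes with the other bait. In the Il4 arrays the middle stretch exceeded the outer probes in 8 of 8 arrays, by 0.02 to 0.27. The bin chr10:126500001-127000000 was above 0 in 8 of 8 arrays, from 0.05 over a median of 0.22 to 0.30, and chr10:127500001-128000000 likewise, with a median of 0.16. Group means of the former lay above 93.3% to 98.4% of the bins off chromosome 11. Those of chr10:128000001-128500000 lay above 73.9% to 82.0%. The next bin past the stretch, chr10:128500001-129000000, was above 0 in 0 of 8, with a median of -0.09. These Il4 levels were at most 0.30 where Ifng naïve arrays had 1.80 and 1.90, and in no Il4 group did a bin of the region lie above the highest one off the bait chromosome.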

How the data were processed

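Contacts of Ifng (10 arrays, 5 groups of 2) and Il4 (8 arrays, 4 groups of 2) were taken from the deposited values, which are log2 ratios of Cy5 (4C DNA) over Cy3 (cut genomic DNA) per probe, per the labels' protocols. The log base was taken as 2, and the genome build, the filters, the background correction and the scanner software are not given in the sources used here. Groups and replicate numbers came from titles and source names. The protocol text describes adherent cells and names other baits, and titles were followed. In 4 of the 5 Ifng pairs the sorted values of both arrays agree within 0.011 for at least 99.5% of probes, and in the Th1 pair for 42.8%. The build was read from probe positions: probes ran past the ends of 0 of 21 chromosomes in mm8, 11 in mm7, 5 in mm9 and 8 in mm10.

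The region, its stretches and its lists were chosen with earlier results of these data known. The median over probes off the bait chromosome was subtracted from each array, without loess or quantile normalization. Probes were then averaged per 500-kb bin (20 probes or more), without those up to 1 Mb from the bait. The test per bin was limma's moderated one (version 3.58.1, R 4.3.3) over all groups of the bait, and over both baits for the bait difference, two-sided, with Benjamini-Hochberg adjustment over all bins at 0.05. The called bins with the largest rise and fall are named with full statistics, adjacent called bins are given as runs, and the highest 100-kb bin per group and stretch is named. Bands came from circlize 0.4.16, gene order and promoters from RefSeq on GRCm38.p6. The software was matplotlib 3.10.9, scipy 1.17.1, pandas 2.3.3 and numpy 2.4.6 in Python 3.11.15.

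On simulated data with 200 of 5021 bins changed, 98% of changes of 0.4 and 51% of changes of 0.2 were recovered for Th1 minus naïve, and 6.29% of calls were false. For S4KO minus Th1 these were 96%, 51% and 5.77%. The simulation drew independent normal noise per bin around a mean shared by all arrays, with no group effect but the added changes. It held no difference in array strength and no link between neighbouring bins, so these rates cover neither. Precision is limited by there being 2 arrays per group. Same-numbered replicates do not pair: their deviations correlated at -0.21 to 0.24 over the 10 pairs of groups, 4 of them over 0.1. Alternatives were bins of 200 and 1000 kb, the median per bin, quantile normalization, scaling by spread off the bait chromosome or by the level 1 to 2 Mb from the bait, centring on all probes, no probe minimum, trend and robust eBayes, a block for the replicate number or serial series, the compared groups alone, each replicate left out, and other limits for strong probes.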

Additional observations from a re-analysis of the deposited data

How the results depend on the processing

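Values are the percent of the region's bins called, with bins higher and lower where the split bears on the direction. With 200-kb bins it was 25.7% for Th1 minus naïve and for S4KO minus Th1 (42.9% and 57.1% as reported), 31.4% for S4KO minus naïve (78.6%) and 11.4% for S4KO minus Th2 (28.6%). With the median per bin it was 21.4% for Th1 minus naïve, 35.7% for Th2 minus naïve (92.9%), turned to mostly lower, 21.4% for Th1 minus Th2 (78.6%), turned to mostly higher, 0% for S4KO minus Th1, 21.4% for S4KO minus naïve (all lower), 14.3% for S4KO minus Th2 (all higher), 71.4% for 3T3-L1 minus T cells (64.3%), turned to mostly higher, and 50% for the bait difference (100%). Quantile normalization gave 21.4% for Th1 minus naïve and 42.9% for S4KO minus naïve. Scaling by spread gave 21.4% for Th1 minus naïve, now higher, 14.3% for S4KO minus Th1, now lower, 21.4% for S4KO minus naïve and 0% for S4KO minus Th2. Scaling by the level 1 to 2 Mb from the bait gave 14.3% for Th1 minus naïve, now higher, 42.9% for Th2 minus naïve, 28.6% for S4KO minus Th1, 50% for S4KO minus naïve, 0% for S4KO minus Th2 and 85.7% for 3T3-L1, now mostly higher. The eBayes trend and robust settings gave 42.9% for S4KO minus naïve and 14.3% for S4KO minus Th2. The cause of these shifts was not tested.

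Leaving out 1 array at a time gave 42.9% to 50% for Th1 minus naïve, 78.6% to 85.7% for Th2 minus naïve, 71.4% to 85.7% for Th1 minus Th2, 35.7% to 64.3% for S4KO minus Th1, 50% to 78.6% for S4KO minus naïve, 21.4% to 42.9% for S4KO minus Th2, 50% to 71.4% for 3T3-L1 and 100% for the bait difference. A lone array was assumed to vary like the other groups. With the replicate number as a block, Th1 minus Th2 had 2 higher and 10 lower, with chr10:126500001-127000000 added, and the other counts were those reported. In S4KO minus Th2 the bins behind that count changed: chr10:126000001-126500000 was called lower (adjusted p = 0.0384) and the terminal bin was not (0.0625). The serial series as a block gave 0 higher and 6 lower for Th1 minus naïve, 8 and 3 for Th2 minus naïve and 1 and 10 for Th1 minus Th2. In these fits only the Th1 replicates linked the series. The block could not be fitted for S4KO and 3T3-L1 cells.

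The level of the region by the median probe was 0.17 in naïve, 0.12 in Th1, 0.21 in Th2, 0.24 in S4KO and 0.22 in 3T3-L1 cells. Scaled by the level near the bait, the mean was 0.50 in naïve, 0.77 in Th1, 0.54 in Th2, 0.70 in S4KO and 0.56 in 3T3-L1 cells. Th2 cells were thus highest in neither, and Th1 cells were highest on the scaled mean. With the highest 2% of probes 6 bins were called in 3T3-L1 cells in place of 11. The 13 bins named as a comparison's largest called rise or fall had 191 alternative values. Of these, 174 kept direction and call, 16 lost the call, and 1 reversed. The reversal was Th1 minus naïve at chr10:127000001-127500000, which was 0.16 (limma adjusted p = 0.421) when scaled by the level near the bait. Other bins given with statistics are not in this tally. On the same scale the S4KO minus Th2 terminal bin turned to 0.16, not called, and Th1 minus naïve at chr10:127500001-128000000 was called higher. Arrays of 2 per group, a build read from probe positions and genes known only by band limit what can be placed.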
